A study of Mus musculus with 6 samples.

Results

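The 7 genes described here encode the CD4 and CD8 coreceptors of T cells and the transcription factors that choose between them: Cd4, Cd8a, Cd8b1, Zbtb7b, Runx1, Runx3 and Cbfb. They were taken by name, with no threshold on their values, and each matched 1 of the 17985 gene rows of a deposited RNA-seq table. The choice was made with earlier results of these data known. The libraries came from iNKT1 cells of the thymus of untreated C57BL/6 mice. These are invariant natural killer T cells, which recognise lipid antigens on CD1d, of the subset that carries the factor T-bet. Each group had 3 libraries. Control mice (Ctrl) carried a Tbx21CreTg transgene and Rosa26-LSL-YFP+/+, a reporter that Cre switches on. Conditional knockout mice (cKO) carried the same transgene and reporter and, in addition, Tgfbr2F/F, floxed alleles of the type II TGF-beta receptor gene. Cre was therefore present in both groups, and because Tbx21 encodes T-bet, deletion is limited to cells that express or have expressed the transgene. Age, sex, pooling of mice and the sorting gate were not given in the sources used here.

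CD4 binds MHC class II and CD8 binds MHC class I, and both bring the kinase LCK to the T cell receptor. In conventional thymocytes the zinc finger factor ThPOK, encoded by Zbtb7b, directs cells to the CD4 lineage and represses Cd8a, Cd8b1 and Runx3, whereas RUNX3 represses Cd4 and Zbtb7b and directs cells to the CD8 lineage. RUNX1 silences Cd4 in early thymocytes, and RUNX proteins bind DNA as partners of CBF-beta. Mouse iNKT cells are mostly CD4-positive or lack both coreceptors, and ThPOK is known to keep CD8 off in them.

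The shallowest library held 28832779 reads and the deepest 68092478. Levels are given as CPM, the reads of a gene scaled to a common library total, and a single read stands for 0.0147 to 0.0347 CPM. Tgfbr2 stood at 461, 460.7 and 424.9 CPM in Ctrl and at 289.8, 257.6 and 274.3 CPM in cKO, 61.0% of the Ctrl mean (limma log2 fold change -0.71 ± 0.08 SE, adjusted p = 0.0207). The groups did not overlap, and the direction matched the labels. The authors' deposited table does not mark Tgfbr2 (edgeR log2 fold change -0.645, likelihood-ratio adjusted p = 0.373). Which exons are floxed was not given, so the Tgfbr2 level does not measure how many cells lost the receptor. The replicate 3 libraries of both groups stood apart: 4406 genes in Ctrl and 4590 in cKO were listed at 0 there, against 0 to 5 in the other 4 libraries, although they were the deepest libraries of their groups. Of 10 iNKT1 markers, 9 had a row, with summed levels of 4982 to 6337 CPM in Ctrl and 5823 to 7664 CPM in cKO. Single markers differed within that sum. Limma called 1 of the 9, Xcl1, lower (181 CPM in Ctrl, 91.5 CPM in cKO, adjusted p = 0.0281), against 0.663% of all genes tested. With the replicate number as a block it called Xcl1 lower and Il2rb higher, against 2.87% of all genes. The 4 matched markers of double-positive thymocytes, out of 6, summed to 3.66 to 14.5 CPM in Ctrl and 6.48 to 18.9 CPM in cKO. Summed markers of iNKT2 cells (3 of 4 matched) were 40.9 to 73.8 CPM in Ctrl and 37.0 to 78.4 CPM in cKO, those of iNKT17 cells (3 of 5) 0.472 to 8.59 CPM and 3.58 to 7.80 CPM. Summed B cell markers (3 of 5) were 4.33 to 11.5 CPM in Ctrl and 3.14 to 11.7 CPM in cKO. Those of dendritic cells and macrophages (8 of 10) were 107 to 127 CPM and 91.6 to 125 CPM, with Csf1r, Flt3 and Clec9a at 0 in both replicate 3 libraries. Most of that sum was 1 gene, Cst3, at 95.7, 97.0 and 95.6 CPM in Ctrl and 82.9, 75.8 and 114 CPM in cKO. Of 2 regulatory T cell markers 1 was matched, Ikzf2, which lay at 38.2 to 43.7 CPM in Ctrl and 22.7 to 45.4 CPM in cKO.

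The RUNX genes carry RUNX-type letters near their own upstream starts. The stretches are shown because Runx1 was higher and Runx3 lower in every cKO library by deposited CPM. RefSeq windows of 300 bases on GRCm38.p6 (250 before and 50 after a transcript start) were found for 5 of the 7 genes, in 8 windows; none was matched for Cd4 and Cd8b1. The letters TGTGGT, read on both strands, occurred as a pair 2 bases apart in the upstream windows of Runx1, Runx3 and Runx2. The capitals mark the 2 matches, which read as ACCACA on the strand shown, 5′ to 3′:
Runx1: cataaacaACCACAgaACCACAagttgggt
Runx3: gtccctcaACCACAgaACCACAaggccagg
Runx2: cacaaacaACCACAgaACCACAagtgcggt
The Runx1 stretch lies at chr16:92826025-92826054 on the minus strand, the Runx3 stretch at chr4:135120503-135120532 on the plus strand, and the Runx2 stretch at chr17:44814583-44814612 on the minus strand. Counted from the first base of the window, the pair occupies bases 279 to 292 for Runx1 and 274 to 287 for Runx2, after the transcript start, and bases 117 to 130 for Runx3, before it. The 14 bases that hold the pair are identical in the 3 genes. Such a pair was present in 7 of 32851 windows (0.0213%); the other 4 belonged to Gm12236, Gm15462, Olfr24 and Gm16225, whose window overlaps that of Runx3. Single matches are common: TGTGGT or TGCGGT, on either strand, was found in 22.4% of all windows, among them 1 Zbtb7b window and the Cd8a window. CAGACA, letters that SMAD proteins bind, was found in 21% of windows on either strand, among them those of Cd8a and Cbfb and the downstream Runx3 window, but not in either Runx1 window. These matches describe the letters only.

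Of the 7 genes, 1 passed the test without a replicate block (limma on log2(CPM + 1), Benjamini-Hochberg adjusted p under 0.05 over the 15691 genes whose mean reached 1 CPM), against 0.663% of all genes tested. With the replicate number as a block 2 passed, Runx1 and Cd4, against 2.87% of all genes. By deposited CPM, the values of the 3 Ctrl and 3 cKO libraries did not overlap for 4 of the 7. Over all genes tested this share was 11.0%. Cd4 and Runx1 were higher and Runx3 and Cbfb lower in cKO. With TMM scaling the groups overlapped for Cbfb. The authors' deposited table marks 1 of the 7, Runx1, against 0.612% of its rows. As the genes were chosen with earlier results known, these shares are given for scale and do not test the 7 as a set. The plot of CPM by library shows these values for all 7 genes.

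**Figure D1:**
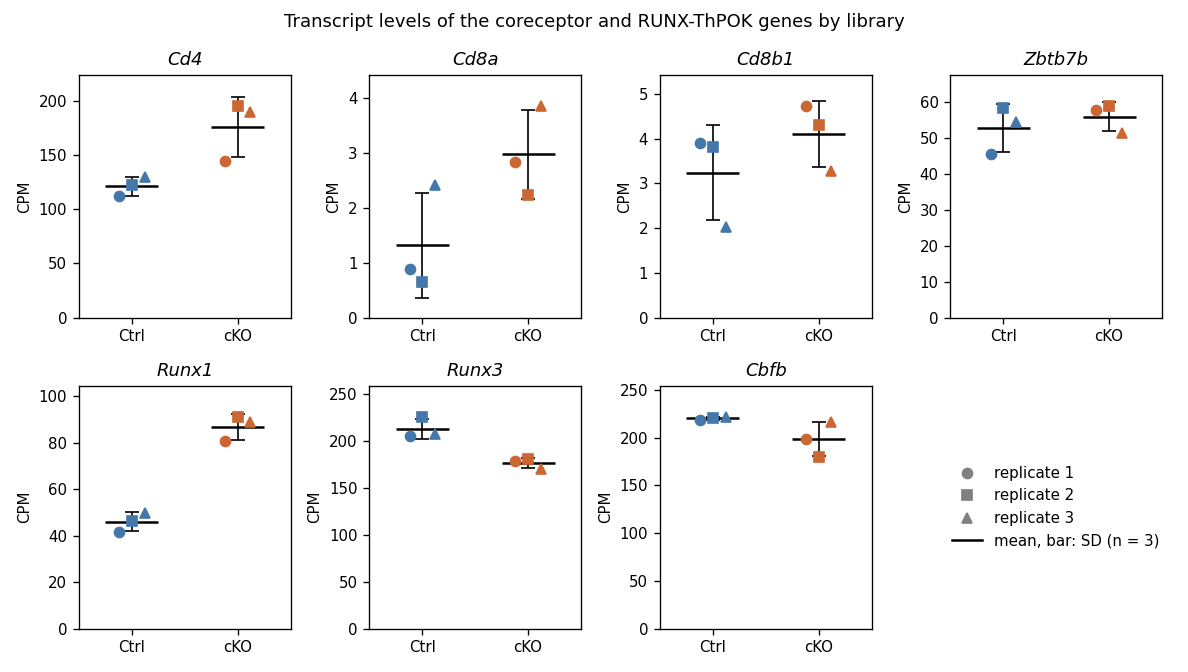
Transcript level in CPM (linear axis from 0, a separate scale for each gene) in the 3 Ctrl and 3 cKO libraries, each symbol 1 library (shape by replicate number), each horizontal line the group mean and each bar its SD (n = 3). The Runx1 points lie between 41.7 and 49.8 CPM in Ctrl and between 80.7 and 91.0 CPM in cKO, whereas Zbtb7b, Cd8a and Cd8b1 overlap between the groups.

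Runx1 rose in cKO and was the only one of the 7 genes that limma called without the block. Runx1 (ENSMUSG00000022952, mm10 chromosome 16, 92601466 to 92826149, minus strand) encodes a RUNX DNA-binding subunit used throughout thymocyte development. Its level was 41.7, 46.5 and 49.8 CPM in Ctrl replicates 1, 2 and 3 and 80.7, 91.0 and 88.9 CPM in cKO replicates 1, 2 and 3. Every cKO library stood well above every Ctrl library, and the spread within each group was small beside the gap. The Ctrl mean was 46.0 ± 4.08 CPM and the cKO mean 86.9 ± 5.46 CPM (SD, n = 3), a ratio of 1.89. This gave a log2 fold change of 0.90 ± 0.10 SE (adjusted p = 0.0189 by limma), with a 95% interval of 1.58- to 2.22-fold on the CPM + 1 scale. By p-value Runx1 ranked 52 among the genes tested. Same-numbered libraries differed by 0.94, 0.95 and 0.82 on the log2 scale, and replicates 1 and 2 alone gave 0.95 (adjusted p = 0.00237 by limma). The authors' deposited table gives a log2 fold change of 0.98 with an adjusted p of 3.44e-05 for Runx1. The call was lost, at 0.97 and 0.96 on the log2 scale, with TMM scaling (adjusted p = 0.0692 by limma) and in unblocked edgeR quasi-likelihood fits (adjusted p = 0.0635). It was also lost without Ctrl replicate 1, 2 or 3 (limma adjusted p = 0.0998, 0.124 and 0.0557) or cKO replicate 2 (0.122), with log2 fold changes of 0.84 to 0.96. An exon of the antisense gene Gm26626 overlaps Runx1, and no strand setting was stated.

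By deposited CPM Runx3 was lower in all cKO libraries, but it did not pass the test. Runx3 (ENSMUSG00000070691, mm10 chromosome 4, 135120652 to 135177990, plus strand) encodes the RUNX subunit of CD8 and cytotoxic cells. It stood at 205.9, 225.6 and 207.7 CPM in Ctrl and at 179.0, 181.3 and 170.4 CPM in cKO. The groups did not overlap, and the cKO mean was 83.0% of the Ctrl mean. By limma the log2 fold change was -0.27 ± 0.08 SE (unadjusted p = 0.0125, adjusted p = 0.464), and the adjusted p was 0.158 with the replicate block. DESeq2 on the recovered reads gave an adjusted p of 0.0115.

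Within each library the make-up of RUNX transcripts differed between the groups, while their summed CPM did not separate them. Runx1 made up 15.8%, 16.3% and 18.4% of the summed Runx1, Runx2 and Runx3 CPM in Ctrl and 29.0%, 31.9% and 32.8% in cKO. Runx3 made up 78.2%, 79.0% and 76.8% in Ctrl and 64.4%, 63.5% and 62.9% in cKO. Both shares kept the groups apart by a gap wider than either group's range. Runx2, the third RUNX gene and best known from bone, held 5.20% ± 0.717 in Ctrl and 5.16% ± 1.20 in cKO (SD, n = 3). The ratio of Runx3 to Runx1 CPM was 4.94, 4.86 and 4.17 in Ctrl and 2.22, 1.99 and 1.92 in cKO. The sum of the 3 genes was 273 ± 11.3 CPM in Ctrl and 278 ± 7.19 CPM in cKO, with overlapping ranges. CPM counts long transcripts more often, and Runx1 has the longest exons of the 3. Per kilobase of merged exons the sum was 46.4, 50.5 and 47.2 in Ctrl and 44.5, 45.3 and 42.8 in cKO, and the groups did not overlap. An exact two-sided permutation test of 3 against 3 libraries cannot go below p = 0.1, so no test is given for these within-library quantities.

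**Figure D2:**
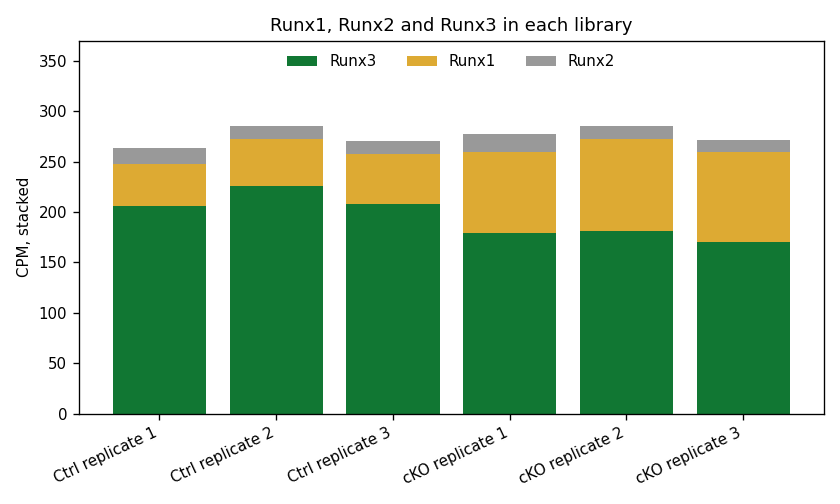
Stacked bars of Runx1, Runx2 and Runx3 CPM in each of the 6 libraries (linear axis from 0). The bars reach 264 to 286 CPM in both groups, and the Runx1 segment widens from 41.7 to 49.8 CPM in Ctrl to 80.7 to 91.0 CPM in cKO.

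Cbfb, which encodes the partner that stabilises RUNX proteins on DNA, was lower in every cKO library by deposited CPM, without passing the test. Cbfb (ENSMUSG00000031885, mm10 chromosome 8, 105170674 to 105217989, plus strand) stood at 218.3, 220.6 and 221.3 CPM in Ctrl and at 198.6, 180.2 and 216.3 CPM in cKO. The Ctrl libraries were close together, and cKO replicate 3 lay just below the lowest of them. This separation holds for the deposited scaling. The TMM factor of cKO replicate 3 was 0.888, the lowest of all libraries. After division by the TMM factors, cKO replicate 3 was the highest library for Cbfb, and the groups overlapped. The limma log2 fold change was -0.15 ± 0.09 SE, with an adjusted p of 1, or 0.529 with the block. It was -0.09 without cKO replicate 2 and likewise -0.09 with TMM scaling. Per kilobase, the ratio of Cbfb to the summed RUNX genes was 1.32 ± 0.0544 in Ctrl and 1.29 ± 0.155 in cKO (SD, n = 3), with overlapping ranges.

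Zbtb7b, which encodes ThPOK, showed no difference beyond the spread of the libraries. Zbtb7b (ENSMUSG00000028042, mm10 chromosome 3, 89377644 to 89394776, minus strand) lay at 45.5, 58.3 and 54.5 CPM in Ctrl and at 57.7, 58.8 and 51.5 CPM in cKO. The groups overlapped: Ctrl replicate 1 was the lowest of the 6 libraries, and the next lowest was cKO replicate 3. Its log2 fold change by limma was 0.09 ± 0.12 SE (adjusted p = 1), with a 95% interval of 0.870- to 1.30-fold. Same-numbered libraries differed by 0.34, 0.01 and -0.08, and without Ctrl replicate 1 the log2 fold change was -0.01. Exons of the antisense gene Gm15417, itself listed at 2.74 to 4.16 CPM, overlap Zbtb7b.

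Cd4 transcripts were higher in every cKO library, and limma called it only with the replicate block. Cd4 (ENSMUSG00000023274, mm10 chromosome 6, 124864692 to 124888221, minus strand) was at 111.9, 122.0 and 129.5 CPM in Ctrl replicates 1, 2 and 3 and at 143.9, 194.5 and 189.1 CPM in cKO replicates 1, 2 and 3. The groups did not overlap, and cKO replicate 1 lay closer to the Ctrl libraries than the other cKO libraries did. The mean went from 121 ± 8.84 to 176 ± 27.8 CPM (SD, n = 3), a ratio of 1.45. The limma log2 fold change of 0.52 ± 0.13 SE had an adjusted p of 0.325 without the block. With the block the same change had an SE of 0.09 and an adjusted p of 0.0169 by limma. Cd4 passed in 4 of 11 alternatives, of which DESeq2 had no block (adjusted p = 0.0118), and in none of the 6 fits that left out 1 library, where the limma adjusted p ran from 0.109 to 0.900. In bulk RNA, a larger share of CD4-positive cells and more Cd4 RNA per cell cannot be told apart. The iNKT2 marker sums, from cells that are largely CD4-positive, overlapped between the groups as given above, but single genes of that list differed in opposite directions. Il4 stood at 24.6, 37.5 and 44.3 CPM in Ctrl and at 14.4, 20.9 and 20.4 CPM in cKO (limma adjusted p = 0.421, or 0.00806 with the block). Ccr4 stood at 6.72, 13.1 and 12.4 CPM in Ctrl and at 12.8, 24.9 and 33.7 CPM in cKO (limma adjusted p = 0.717, or 0.0115 with the block). Both were singled out after their values were seen, and the part of iNKT2 cells in the Cd4 difference was not tested.

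**Figure D3:**
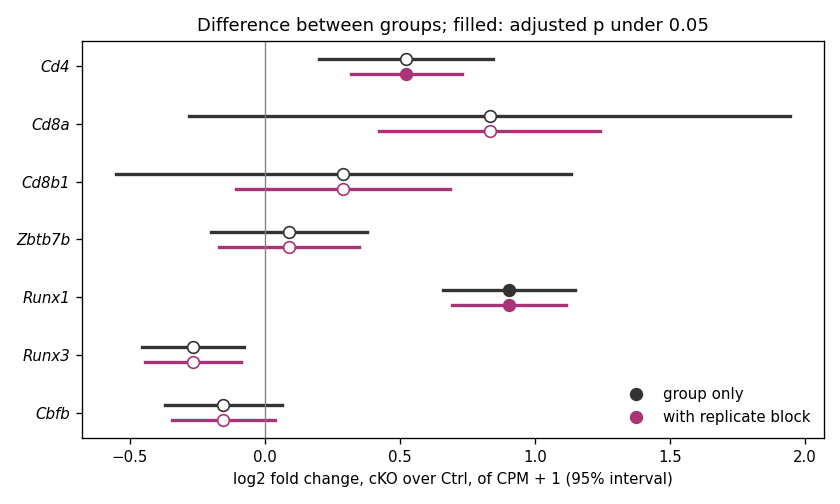
The log2 fold change of CPM + 1, cKO over Ctrl, for each of the 7 genes with its 95% interval, without and with the replicate block; filled symbols mark an adjusted p under 0.05. Runx1 is filled in both fits at 0.90, Cd4 at 0.52 only with the block, and the interval of Cd8a without the block runs from -0.28 to 1.94.

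Transcripts of the CD8 chains were scarce in both groups. Cd8a (ENSMUSG00000053977, mm10 chromosome 6, 71373427 to 71379171, plus strand), the alpha chain, stood at 0.892, 0.650 and 2.42 CPM in Ctrl, from 30, 20 and 128 reads. In cKO it stood at 2.84, 2.24 and 3.85 CPM, from 82, 94 and 262 reads. Every cKO library was above its same-numbered Ctrl library, by 1.02, 0.97 and 0.50 on the log2(CPM + 1) scale, but Ctrl replicate 3 was higher than cKO replicate 2 and the groups overlapped. The limma log2 fold change was 0.83 with an interval of -0.28 to 1.94 and an adjusted p of 1. With the block the interval was 0.42 to 1.24 and the adjusted p 0.05003, just above the threshold. Its log2 fold change was 0.34 with a pseudocount of 5 and 1.38 in edgeR with the block, and Cd8a passed only with TMM scaling and the block together (limma adjusted p = 0.0239).

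Cd8b1 (ENSMUSG00000053044, mm10 chromosome 6, 71322836 to 71337477, plus strand), the beta chain, was at 3.90, 3.80 and 2.02 CPM in Ctrl and at 4.72, 4.31 and 3.28 CPM in cKO. All 3 same-numbered comparisons were higher in cKO, by 0.22, 0.14 and 0.50, and the groups overlapped. In limma it differed by a log2 fold change of 0.29 ± 0.35 SE (adjusted p = 1, or 0.579 with the block). It was 0.06 without Ctrl replicate 3, 0.18 with replicates 1 and 2 only and 0.15 with a pseudocount of 5. Both chains lie 35949 bases apart on chromosome 6 without sharing the order of the libraries: Cd8a was highest and Cd8b1 lowest in replicate 3 of each group. The ratio of Cd8a to Cd8b1 CPM was 0.229 and 0.171 in Ctrl replicates 1 and 2, 0.603 and 0.519 in cKO replicates 1 and 2, and 1.20 and 1.17 in Ctrl and cKO replicate 3.

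The levels of the CD8 chains have to be read beside 4098 genes that were listed at 0 in both replicate 3 libraries. In replicates 1 and 2 the same genes had median levels of 2.14 and 1.77 CPM in Ctrl and of 2.46 and 1.45 CPM in cKO. Per kilobase of merged exons, 90.7%, 92.7%, 61.7% and 49.3% of them exceeded Cd8a in Ctrl replicates 1 and 2 and cKO replicates 1 and 2. For Cd8b1 these shares were 17.0%, 12.8%, 14.8% and 9.77%. In the replicate 3 libraries, where these genes are at 0, Cd8a had 128 and 262 reads and Cd8b1 107 and 223 reads in Ctrl and cKO, with no second library of either group to compare. Double-positive thymocytes express both CD8 chains, and their 4 matched markers summed to 14.5, 12.2 and 3.66 CPM in Ctrl and to 18.9, 12.4 and 6.48 CPM in cKO, with overlapping ranges. The part of these genes and of those cells in the Cd8a difference was not tested.

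On the scale of CPM per kilobase of merged exons, which allows genes to be compared, the order in Ctrl was Cbfb, Runx3, Cd4, Zbtb7b, Runx1, Cd8b1 and Cd8a. The Ctrl means were 63.2 ± 0.453 for Cbfb, 42.6 ± 2.18 for Runx3, 30.0 ± 2.19 for Cd4, 9.44 ± 1.18 for Zbtb7b, 3.82 ± 0.339 for Runx1, 2.18 ± 0.712 for Cd8b1 and 0.363 ± 0.264 for Cd8a (SD, n = 3). No neighbours in this order overlapped over the Ctrl libraries. In cKO the means were 57.0 ± 5.20 for Cbfb, 43.6 ± 6.89 for Cd4, 35.4 ± 1.14 for Runx3, 10.01 ± 0.702 for Zbtb7b, 7.22 ± 0.454 for Runx1, 2.76 ± 0.501 for Cd8b1 and 0.818 ± 0.224 for Cd8a. Cd4 and Runx3 thus changed places by their means, although their cKO ranges overlapped. The ratio of Cd4 to Runx3 per kilobase was 0.674, 0.671 and 0.773 in Ctrl and 0.998, 1.33 and 1.38 in cKO, so Cd4 stood above Runx3 in cKO replicates 2 and 3. In cKO replicate 1 the levels were 35.7 for Cd4 and 35.8 for Runx3, and with the longest coding transcript as the length 46.3 and 46.1, so their order there depends on the length. With the longest coding transcript as the length, Runx1 in cKO (14.8 ± 0.932) also came above Zbtb7b (12.9 ± 0.906), so the order of those 2 genes also changes with the length. The ratio of Zbtb7b to Runx3 per kilobase was 0.221 ± 0.0205 in Ctrl and 0.283 ± 0.0109 in cKO, with no overlap. Per kilobase, Cd4 exceeded Cd8a 48.3 to 169 times in Ctrl and 44.3 to 78.4 times in cKO.

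**Figure D4:**
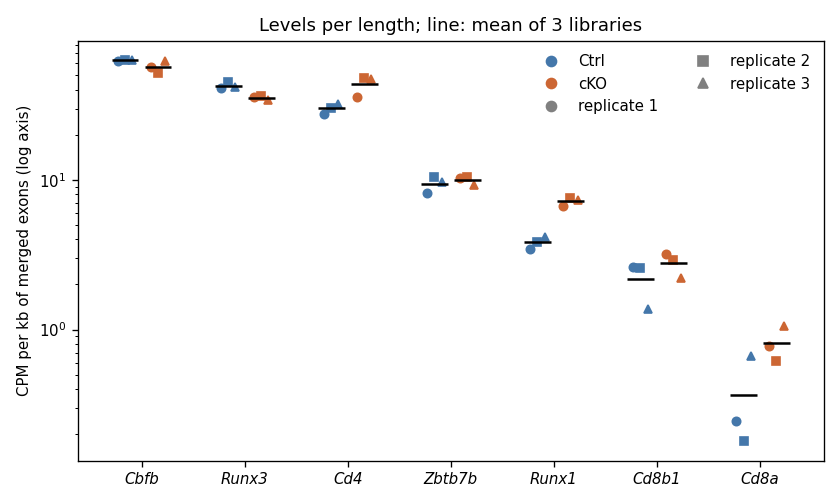
Levels of the 7 genes in CPM per kilobase of merged exons on a log axis, each point 1 library and each line the mean of a group's 3 libraries. Cd8a is lowest in both groups (0.363 in Ctrl and 0.818 in cKO), Cbfb is highest, and Cd4 and Runx3 change places between the groups.

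Other regulators of the CD4 and CD8 choice were called only with the block or by DESeq2. Of 17 such genes, all tested, 0 passed limma without the block, 1 had an unadjusted p under 0.05, and 2 passed with the block, both higher. DESeq2 called 1 and edgeR's quasi-likelihood test with the block 2. Over all genes tested 0.663% passed limma without the block and 2.87% with it. Among all genes DESeq2 called 552 and edgeR with the block 469. The list was chosen with earlier results known and no set test was run, so these counts are not a result about it. The median log2 fold change of the 17 genes was -0.02, beside -0.04 over all genes tested. Tcf7, which encodes TCF-1, a factor upstream of ThPOK, was at 312, 247 and 257 CPM in Ctrl and at 378, 363 and 387 CPM in cKO. All cKO libraries were above all Ctrl libraries (log2 fold change 0.47, limma adjusted p = 0.227, or 0.0239 with the block). Myb, which encodes a factor active in early and CD4-lineage thymocytes, was at 2.79, 8.68 and 16.8 CPM in Ctrl replicates 1, 2 and 3 and at 5.45, 20.1 and 31.9 CPM in the same cKO replicates. Its spread within each group was wider than the difference, whereas each same-numbered comparison was higher in cKO (log2 fold change 0.93, limma adjusted p = 1, or 0.0170 with the block).

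Genes of the RUNX machinery and of coreceptor signalling gave no call. Of 9 further RUNX family and corepressor genes, 0 passed limma with or without the block and 0 had an unadjusted p under 0.05, with a median log2 fold change of 0.00. The smallest p belonged to Tle3, a Groucho-type corepressor that RUNX proteins recruit, at 44.7, 50.9 and 39.5 CPM in Ctrl and 62.9, 67.2 and 46.1 CPM in cKO (limma adjusted p = 0.929). Of 10 genes of the receptor complex and its proximal kinases, among them Lck, 0 passed limma in either fit and 0 had an unadjusted p under 0.05, with a median of -0.01. DESeq2 and edgeR's quasi-likelihood test with and without the block called 0 in both lists. With 0.663% of all genes called without the block and 2.87% with it, a count of 0 in lists of this size is near the background and is not a result about them. The smallest p there was that of Cd3e, a CD3 chain (log2 fold change -0.20, limma adjusted p = 1).

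Among 6 genes known to depend on RUNX3 in CD8 cells, 5 were tested, Eomes being below the filter. Their log2 fold changes differed in sign. Itgae, which encodes the CD103 integrin chain and is also a classical TGF-beta target, fell from 830, 768 and 616 CPM in Ctrl to 15.4, 38.7 and 36.3 CPM in cKO. That is 4.08% of the Ctrl mean (log2 fold change -4.66 ± 0.34 SE, limma adjusted p = 0.00403). Il2rb, the shared beta chain of the IL-2 and IL-15 receptors, was at 2357, 2896 and 3521 CPM in Ctrl and 2948, 3784 and 4384 CPM in cKO and passed only with the block (log2 fold change 0.34, limma adjusted p = 0.0166, or 1 without it). Over the 5 genes the median log2 fold change was 0.14. With replicates 1 and 2 alone 0 of them passed, although Itgae then differed by -4.97 on the log2 scale. Over all genes tested 0.663% passed limma without the block and 2.87% with it. With replicates 1 and 2 alone 296 genes passed. The list was chosen with earlier results known and no set test was run, so these counts are not a result about it. The plot of the 4 lists shows each gene.

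**Figure D5:**
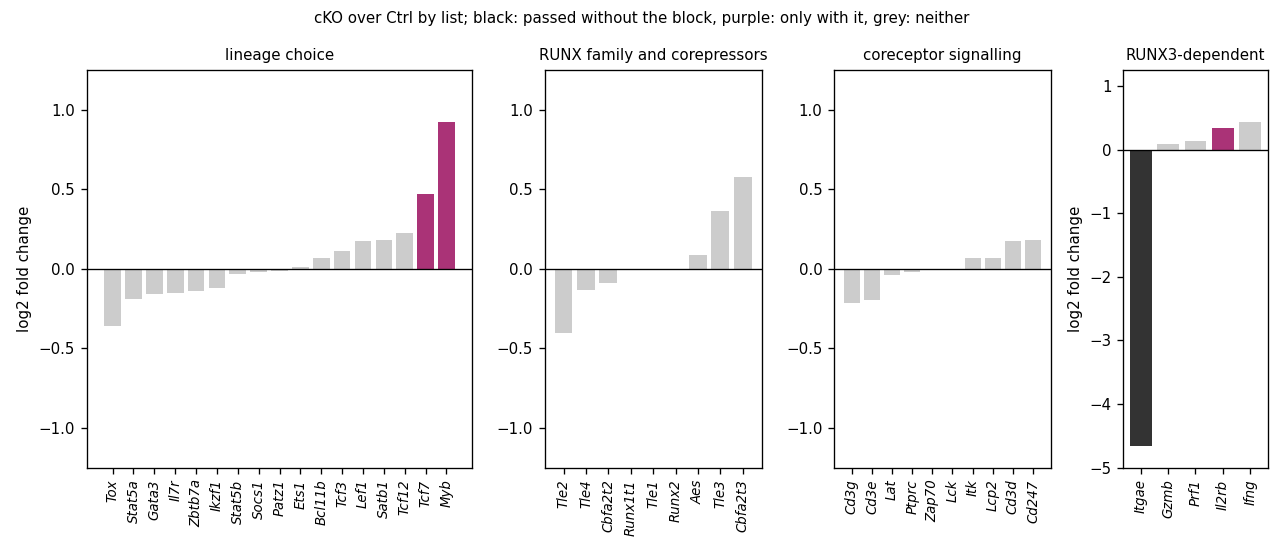
The log2 fold change of CPM + 1, cKO over Ctrl, for each tested gene of the 4 lists (limma, bars from 0); black bars passed without the replicate block, purple bars only with it and grey bars in neither fit, and the RUNX3-dependent panel has a longer axis; Aes is the table's name for Tle5. Itgae at -4.66 is the single black bar, and Tcf7, Myb and Il2rb are purple.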

How the data were processed

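Total RNA of thymic iNKT1 cells was sequenced in 3 Ctrl and 3 cKO libraries. Per the submitters' processing notes, Trimmomatic 0.33, STAR 2.5.2, HTSeq 0.6.1, edgeR and mm10 were used; strand setting and gene filter were not given in the sources used here. The authors deposited 1 table of CPM per gene, whose columns, named WT and KO, were matched to the Ctrl and cKO titles by their replicate numbers and the genotype, together with the authors' log2 fold change, likelihood-ratio score and p-value. In each library, CPM values of the listed genes were whole multiples of 1 read in 100% of cases (tolerance 0.01). Reads were therefore recovered, and listed genes held 99.41% to 99.93% of each library. CPM of genes with a mean of at least 1 (15691 of 17985) were tested as log2(CPM + 1) with limma 3.58.1 (trend, robust) in R 4.3.3, p-values being adjusted by Benjamini and Hochberg across every gene tested, at a threshold of 0.05. edgeR 4.0.16 and DESeq2 1.42.0 ran on the recovered reads as alternatives. The fits were also run on simulated counts. There same-numbered libraries shared their mean levels apart from the genes set to change, so that run does not test the pairing. Libraries with the same replicate number deviated together (correlations 0.855, 0.687 and 0.924). For replicates 1 and 3 this was above the highest correlation with another number (0.578 and -0.698). For replicate 2 it was not, that value being 0.718, so the data by themselves do not pair replicate 2. No batch was stated, and the blocked fits rest on the replicate numbers. The labels call the replicates independent without saying whether they are separate mice, so p-values measure the spread between these libraries. Lengths are merged exons in GENCODE M21, which matched 17825 identifiers, since the deposited length exceeds the merged exons in 6 of the 7 genes. Tle5 was matched as Aes. Named genes are the 7 genes and Tgfbr2, every list gene past the threshold with or without the block, otherwise the smallest p of a list, the nearest tested neighbours, and the 2 genes most alike Cd4, Cd8a, Zbtb7b and Runx3. The genes and lists were chosen with earlier results of these data known.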

Additional observations from a re-analysis of the deposited data

How the results depend on the processing

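Without the block limma called 104 genes, 32 higher and 72 lower (30.8% higher). With the replicate block it called 451 (194 higher, 257 lower; 43.0% higher), with TMM scaling and the block 514 (265 and 249; 51.6%), and with replicates 1 and 2 only 296 (126 and 170; 42.6%). edgeR's quasi-likelihood test called 40 (11 and 29) without the block and 469 (225 and 244; 48.0%) with it, DESeq2 552 (279 and 273; 50.5%). TMM scaling alone left 20 called higher. Leaving out 1 library gave 14 to 97 calls, 3 to 25 higher and 10 to 72 lower; without Ctrl replicate 1, 2 or 3 or cKO replicate 2 the counts were 22, 14, 28 and 22, and without cKO replicate 2 13.6% were higher. Of the 7 genes, 0 passed with TMM scaling or edgeR without the block, 2 with the replicate block in limma or edgeR, 3 with TMM scaling and the block or with DESeq2, and 0 to 1 without 1 library. Lineage-choice genes past the threshold were 2 with the block in all 3 blocked fits and 1 with DESeq2; RUNX3-dependent genes were 2 in those 4 fits and 0 with replicates 1 and 2 only. Zbtb7b turned to -0.012 without Ctrl replicate 1 (range -0.012 to 0.163). The other 6 genes kept their direction in all 11 alternatives and all 6 fits without 1 library; with the deposited scaling the block in limma changed the call of Cd4 alone among them, and with TMM scaling those of Runx1, Cd4 and Cd8a. The cause of these shifts was not tested. Cd8a rested on 20 to 262 reads a library. The intervals given are limma intervals on log2(CPM + 1), which measure the spread between libraries.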

Other observations

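The nearest tested genes on either side of the 7 loci gave no call. There were 12 such neighbours outside the 7 genes: Cdca3 and Ptms beside Cd4, Krcc1 and Rmnd5a beside the Cd8 pair, Dcst1 and Flad1 beside Zbtb7b, Rcan1 and Setd4 beside Runx1, Syf2 and Clic4 beside Runx3, and Ces4a and D230025D16Rik beside Cbfb. None of the 12 passed limma with or without the replicate block, and the groups did not separate for any of them. Their log2 fold changes ran from -0.41 to 0.17, beside 0.90 for Runx1 and 0.52 for Cd4. Over all genes tested 0.663% passed without the block, 2.87% with it and 11.0% had groups that did not overlap, so 0 of 12 is near the background and is not a result about these loci.

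Over the 6 libraries, which share group and depth, the genes most like Cd4 were Cd226 (Pearson r = 0.991), which encodes the costimulatory receptor DNAM-1, and Scml4 (0.987), out of 8752 genes compared. Cd226 was at 131.7, 137.2 and 149.0 CPM in Ctrl and at 166.3, 230.6 and 206.4 CPM in cKO, all above the Ctrl libraries (limma adjusted p = 0.325, or 0.0272 with the replicate block). Most like Runx3 were Phactr2 (0.997) and Mtfr1l (0.991). Phactr2 was at 18.0, 24.5 and 18.8 CPM in Ctrl and at 10.5, 10.2 and 8.55 CPM in cKO, with no overlap (limma adjusted p = 0.0933, or 0.0122 with the block). Most like Cd8a were Asun (0.988) and Sqstm1 (0.984), and most like Zbtb7b were Prpf18 (0.981) and Mark2 (0.981). With 6 libraries, 25 genes exceeded r = 0.95 with Cd4, 21 with Cd8a, 7 with Zbtb7b and 45 with Runx3.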
